A study of Mus musculus with 4 samples.

Results

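The mitochondrial ribosomal protein genes are the nuclear genes for the protein part of the ribosome that works inside mitochondria. They were taken as the protein-coding genes whose mouse symbol begins with Mrpl (large subunit) or Mrps (small subunit) and a digit. This gave 78 genes of the 55487 gene identifiers in the count tables, 49 of the large and 29 of the small subunit, with 5 pseudogenes of the same names left out. The genes lie on 17 chromosomes, with 11 of them on chromosome 11. Livers of female mice aged 11 weeks, of the FVB background and on standard chow, were compared. The groups were 2 wild-type mice (WT) and 2 mice labelled PA, which carry the hypomorphic Pcca-/- (A138T) genotype. Hypomorphic means that some function of the gene remains. Pcca encodes the alpha subunit of propionyl-CoA carboxylase, a mitochondrial enzyme. The mouse line known by this genotype lacks the function of its own Pcca and carries a human PCCA transgene with the A138T change, so a little enzyme activity is left, and the promoter of the transgene is not given in the sources used here. Polyadenylated RNA from 20 mg of frozen tissue was sequenced, and the design text calls the 2 libraries of each group biological replicates.

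Mitochondria translate a small set of mRNAs encoded in their own genome, all for subunits of the respiratory chain and ATP synthase. Their ribosome combines rRNAs made in the organelle with proteins that are encoded in the nucleus, translated in the cytosol and imported, so its assembly needs products of both genomes. Many of these proteins descend from those of bacterial ribosomes, and the others were added during the evolution of mitochondria. In hepatocytes, which are rich in mitochondria, this machinery serves oxidative metabolism and the pathways that clear ammonia, fatty acids and amino acids.

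Gene counts summed to between 25575016 and 30110400 per library. Pcca had 60.3 and 58.9 CPM (read counts scaled to library size after TMM normalisation) in WT, against 34.2 and 47.4 in PA, a log2 fold change of -0.55 with an SE of 0.22 and an adjusted p of 0.398 in edgeR's quasi-likelihood test. Both PA libraries lay below both WT libraries in CPM, while RSEM put Pcca at 34.4 and 35.2 TPM in WT and 20.9 and 37.4 in PA, which overlap. Which part of the gene is disrupted is not given in the sources used here, so this level does not by itself check the genotype. Pccb, the partner subunit, differed by 0.11 (adjusted p = 0.896 in edgeR). The hepatocyte markers, led by Alb at 120638 to 149441 CPM, were high in all 4 libraries. Erythroid markers summed to 88.5 and 47.5 CPM in WT and 11.9 and 16.8 in PA, with 2 of 5 genes called lower. Kupffer cell markers summed to 549 and 486 CPM in WT and 239 and 351 in PA, with 1 of 7 higher in PA and none called. The 5 pancreas markers summed to 29.2 and 16.8 CPM in WT and 11.4 and 7.74 in PA, nearly all of it from Cela1 (log2 fold change -1.27, adjusted p = 0.176 in edgeR), while Pnlip, Cpa1 and Amy2a5 were at 0 in every library. The muscle markers Ckm and Myh4 were at 0. The part of these marker differences in the values below was not tested. Mitochondrially encoded genes held 10.6 and 11.7% of TPM (the RSEM level of a transcript, scaled to its length and to the library total) in WT and 20.7 and 17.1% in PA. In PA replicate 1, 13.5% of reads mapped to several places, against 9.11 to 9.42% in the other libraries. In liver tissue, fewer cells of a type and less RNA per cell cannot be told apart.

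Of the 78 genes, 69 had an entry in a table of RefSeq promoters (GRCm38.p6). The entries missing were those of Mrpl13, Mrpl15, Mrpl19, Mrpl38, Mrpl4, Mrpl54, Mrps28, Mrps34 and Mrps35. The sequences below are shown because they lie before the start sites of the members with the smallest unadjusted p in each subunit that have an entry. They run 5′ to 3′ on the strand of the gene, and bases inside an annotated exon were left out. Mrpl34 is shown at chr8:71464676-71464925, Mrpl16 at chr19:11770165-11770390 and Mrps2 at chr2:28467816-28468065, all on the plus strand. The next member of the small subunit by p, Mrps18b, has its whole window inside exons of the neighbouring gene Ppp1r10, and none of it is printed. Capitals mark CCGGAAG, a match to the binding motif of ETS family factors such as GABPA, which is known to act on many nuclear genes for mitochondrial proteins.
Mrpl34: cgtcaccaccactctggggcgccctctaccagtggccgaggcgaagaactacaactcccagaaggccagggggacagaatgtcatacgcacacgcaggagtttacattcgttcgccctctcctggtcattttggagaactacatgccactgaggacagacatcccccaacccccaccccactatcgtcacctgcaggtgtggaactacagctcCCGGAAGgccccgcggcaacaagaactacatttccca
Mrpl16: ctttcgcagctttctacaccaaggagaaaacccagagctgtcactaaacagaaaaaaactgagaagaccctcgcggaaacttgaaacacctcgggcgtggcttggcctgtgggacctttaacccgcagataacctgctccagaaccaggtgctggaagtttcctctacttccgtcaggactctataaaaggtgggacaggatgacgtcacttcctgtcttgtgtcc
Mrps2: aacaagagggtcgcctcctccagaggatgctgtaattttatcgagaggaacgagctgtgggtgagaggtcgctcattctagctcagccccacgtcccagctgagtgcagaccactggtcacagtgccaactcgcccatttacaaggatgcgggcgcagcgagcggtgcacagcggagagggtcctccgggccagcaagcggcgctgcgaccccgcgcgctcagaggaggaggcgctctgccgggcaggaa

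The Mrpl34 window held 1 CCGGAAG and no other of the 4 motifs searched, and the windows of Mrpl16 and Mrps2 held none. Motifs were searched as exact letters on both strands in the 250 bases before the start, and matches of different motifs were allowed to overlap. CCGGAAG stood in 24.6% of the members' windows (17 of 69), against 9.13% of the windows of 17492 protein-coding genes and 7.05% of all 27025 windows. The motif of NRF1, a regulator of nuclear genes for mitochondrial proteins, was searched as GCGCA, any base, then GCGC. It stood in 14.5% of the members' windows, 5.3% of those of protein-coding genes and 3.86% of all. By subunit it was found in 9 of 43 large and 1 of 26 small subunit windows. The letters GGGCGG, bound by SP1, stood in 47.8% of the members' windows, 42.7% of those of protein-coding genes and 32.9% of all. AAGATGGCG, bound by YY1, stood in 2.9%, 0.697% and 0.607%. GC content averaged 58.0% in the members' windows and 55.1% in those of protein-coding genes. The median log2 fold change, PA over WT, was 0.07 for the 16 tested members with CCGGAAG and 0.02 for the 52 without, and 0.04 and 0.03 for the 10 with and 58 without the NRF1 letters. For GGGCGG it was 0.10 with and -0.03 without. These are descriptions of letters in a window and were not tested.

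Levels between genes were compared on the RSEM TPM scale, which divides by transcript length. The members spanned a wide range, from 7.21 TPM (mean of 4 libraries) for Mrps30 to 142 for Mrpl42, with a median of 36.2 in the large and 31.0 in the small subunit. Mrpl42, a protein of the large subunit with no bacterial counterpart, was listed at 160 and 150 TPM in WT and 130 and 128 in PA. Mrpl12, the stalk protein that contacts translation factors, was at 147 and 147 TPM in WT and 142 and 119 in PA. Mrpl30, a protein with a bacterial counterpart, was at 138 and 145 TPM in WT and 121 and 126 in PA. These 3 were the only members with a mean over 100 TPM, and their ranges over the libraries overlapped one another. Within each library Mrpl42 lay above Mrpl30, while the place of Mrpl12 changed between libraries. The next, Mrpl20, averaged 95.4 TPM, and its highest library (101) lay below the lowest library of the leading 3 (119). In the small subunit the most abundant members were Mrps21 at 92 and 103 TPM in WT and 68 and 110 in PA, Mrps18c at 93 and 96 in WT and 74 and 55 in PA, and Mrps33 at 89 and 70 in WT and 66 and 45 in PA. Their ranges overlapped, but Mrps33 was the lowest of these 3 in every library. Mrps21 and Mrps18c changed order between libraries, so the order of those genes was not settled. The place of Mrps33 (mean 67.2) before the next gene, Mrps24 (mean 66.7), was not settled either. The least abundant members were Mrps30, at 8.47 and 8.37 TPM in WT and 5.59 and 6.4 in PA, and in the large subunit Mrpl19, at 13.1 and 9.57 in WT and 9.23 and 11.6 in PA. Mrpl19 encodes a protein with a bacterial counterpart, and 18 members in all averaged under 20 TPM. The order of the 78 levels was close between libraries, with Spearman's rho of 0.984 for the WT pair, 0.936 for the PA pair and 0.898 to 0.976 for a WT library with a PA library. These correlations run over genes, which are no independent replicates, and describe the libraries only.

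**Figure D1:**
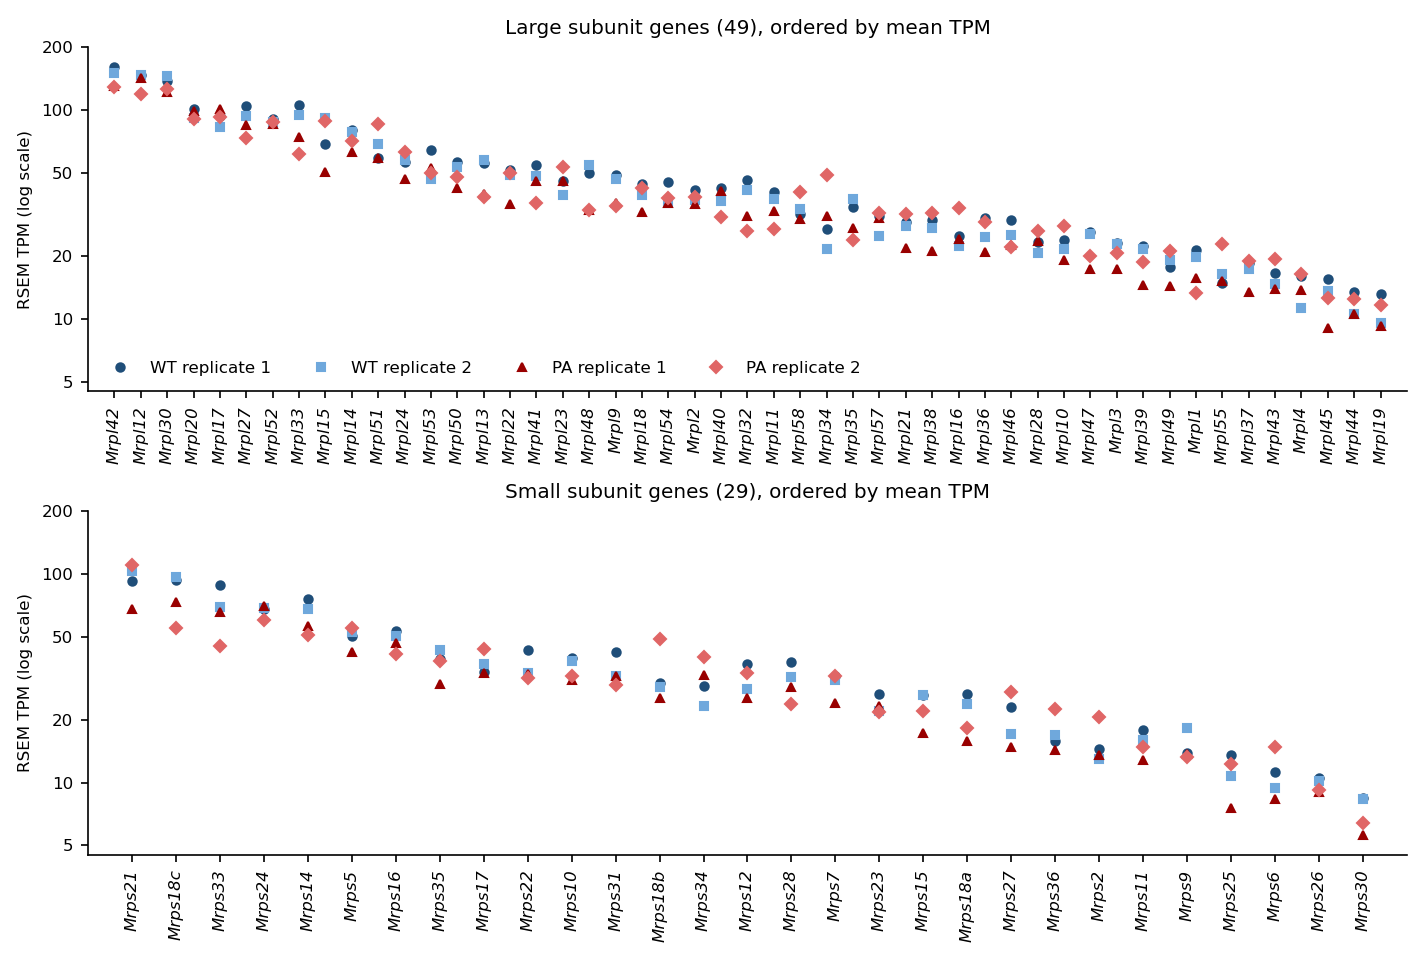
RSEM TPM (log scale) of each of the 78 genes in each library, large subunit above and small subunit below, ordered by mean TPM, with 1 point per library. Mrpl42, Mrpl12 and Mrpl30 lie above 100 TPM in every library, and in both subunits the points of a gene lie closer together than the whole span of genes.

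Summed over the 49 large subunit genes, TPM was 2424 and 2300 in WT and 2033 and 2188 in PA (2362 ± 87.7 and 2110 ± 110, SD, n = 2 each). Over the 29 small subunit genes it was 1093 and 1027 in WT and 874 and 974 in PA (1060 ± 46.3 and 924 ± 70.2, SD, n = 2 each). Both PA sums lay below both WT sums in each subunit, by 0.16 (large) and 0.20 (small) on the log2 scale. TPM shares a fixed total among all transcripts, and the mitochondrially encoded share of that total was higher in PA, as given above. With those genes left out and TPM rescaled, the large subunit sums were 2712 and 2605 in WT and 2564 and 2638 in PA, and the small subunit sums were 1222 and 1164 in WT and 1103 and 1174 in PA. The groups then overlapped in both subunits, and the log2 differences were -0.03 and -0.07. Summed CPM from STAR counts was 1689 and 1704 in WT and 1845 and 1638 in PA for the large subunit, and 680 and 663 in WT and 736 and 683 in PA for the small subunit. On that scale the large subunit sums overlapped and the small subunit sums of PA lay above those of WT by 0.08 (log2). The direction of the summed level was thus not the same under TPM and CPM.

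The balance of the subunits moved little. Within a library, summed TPM of the large subunit was 2.22 and 2.24 times that of the small subunit in WT and 2.32 and 2.25 times in PA. Both PA ratios lay above both WT ratios by a log2 difference of 0.04. In CPM the ratio was 2.48 and 2.57 in WT and 2.51 and 2.40 in PA, with groups that overlapped and a mean that was lower in PA. Placing genes by where the protein sits in the mammalian ribosome, and not by symbol, moved Mrps30 and Mrps18a to the large subunit, left out Mrps36, which is known mainly as a part of the 2-oxoglutarate dehydrogenase complex, and added Gadd45gip1, Dap3, Aurkaip1, Chchd1 and Ptcd3. The TPM ratio was then 1.88 and 1.91 in WT and 1.93 and 1.95 in PA, a log2 difference of 0.04. The CPM ratio was 2.12 and 2.20 in WT and 2.07 and 2.05 in PA, a log2 difference of -0.07. The PA libraries lay apart from the WT libraries on both scales, but in opposite directions.

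**Figure D2:**
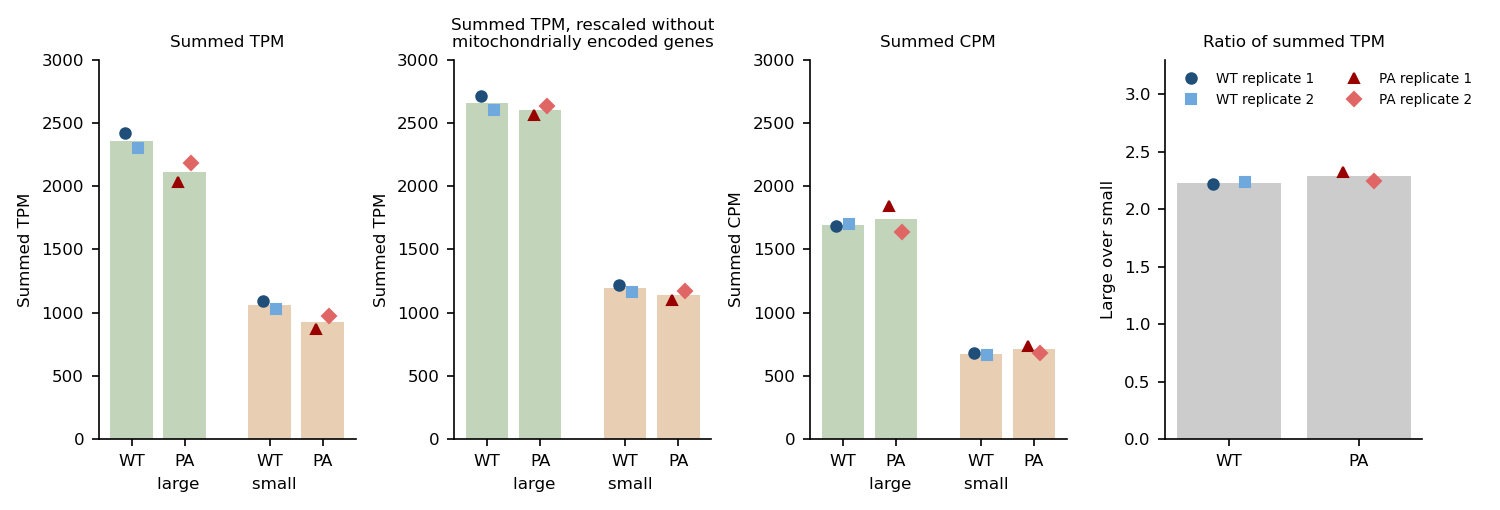
Summed level of the large and small subunit genes as deposited TPM, as TPM rescaled without mitochondrially encoded genes and as CPM, and the ratio of summed TPM, in WT and PA. Bars are means of 2 libraries and points are libraries. The PA sums lie below WT in TPM, overlap WT after rescaling, and the ratio stays between 2.22 and 2.32.

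Tested gene by gene, no member of either subunit passed an adjusted p of 0.05 in edgeR, out of 77 tested members. The same fit called 117 of 14411 genes (0.812%), 38 higher and 79 lower in PA. DESeq2 and limma-voom also called 0 members. At an unadjusted p under 0.05, edgeR gave 4 members higher (Mrpl34, Mrps34, Mrpl16 and Mrps2) and 0 lower, where 5.88% of all genes were higher and 5.93% lower at that level. Of the 48 tested large subunit genes 28 had a higher and 20 a lower fitted value in PA. Of the 29 small subunit genes 16 were higher and 13 lower, and over all tested genes 50.6% were higher. The median log2 fold change was 0.05 in the large and 0.03 in the small subunit, beside 0.00 over all genes. With library sizes alone in place of TMM these medians were -0.00 and -0.02, and that of all genes was -0.04, so the sign of the medians was not fixed. The members lay close together: 73 of 77 (94.8%) were within 0.5 of 0 on the log2 scale, beside 76.2% of all genes. This was not particular to them. The share was 93.3% for mitochondrial translation factors, 91.7% for assembly and rRNA modification genes and 89.3% for nuclear respiratory chain subunits. It was 79.2% for cytosolic ribosomal proteins. The standard errors of the members ran from 0.18 to 0.29, with a median of 0.205, beside a median of 0.265 over all tested genes. In counts simulated for PA against WT over 14172 genes, the test found 16.6% of those given a log2 change of 1. It found 87.1% of those given a log2 change of 2. The changed genes were drawn at random from all tested genes, so these rates are not specific to the members. Every tested member had a smaller fitted difference than 1.

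Both PA libraries lay above both WT libraries in CPM for 23 members (15 large, 8 small), and below for 10 (7 large, 3 small). Over all tested genes these shares were 21.3% and 21.9%. For 44 members the groups overlapped. On the scale of deposited TPM the count ran the other way: of 78 members 34 lay below and 4 above in both PA libraries, and 59 had a lower mean in PA. After rescaling without mitochondrially encoded genes, 24 lay below and 11 above, and 46 had a lower mean. Neither direction of the members as a group therefore held on both scales. The WT libraries were close to each other, with a median absolute log2 difference of 0.10 over the members, and the PA libraries were farther apart, at 0.27. Over all genes these medians were 0.22 and 0.34. PA replicate 1 was the higher PA library for 45 of 77 members (58.4%), beside 50.2% of all tested genes.

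**Figure D3:**
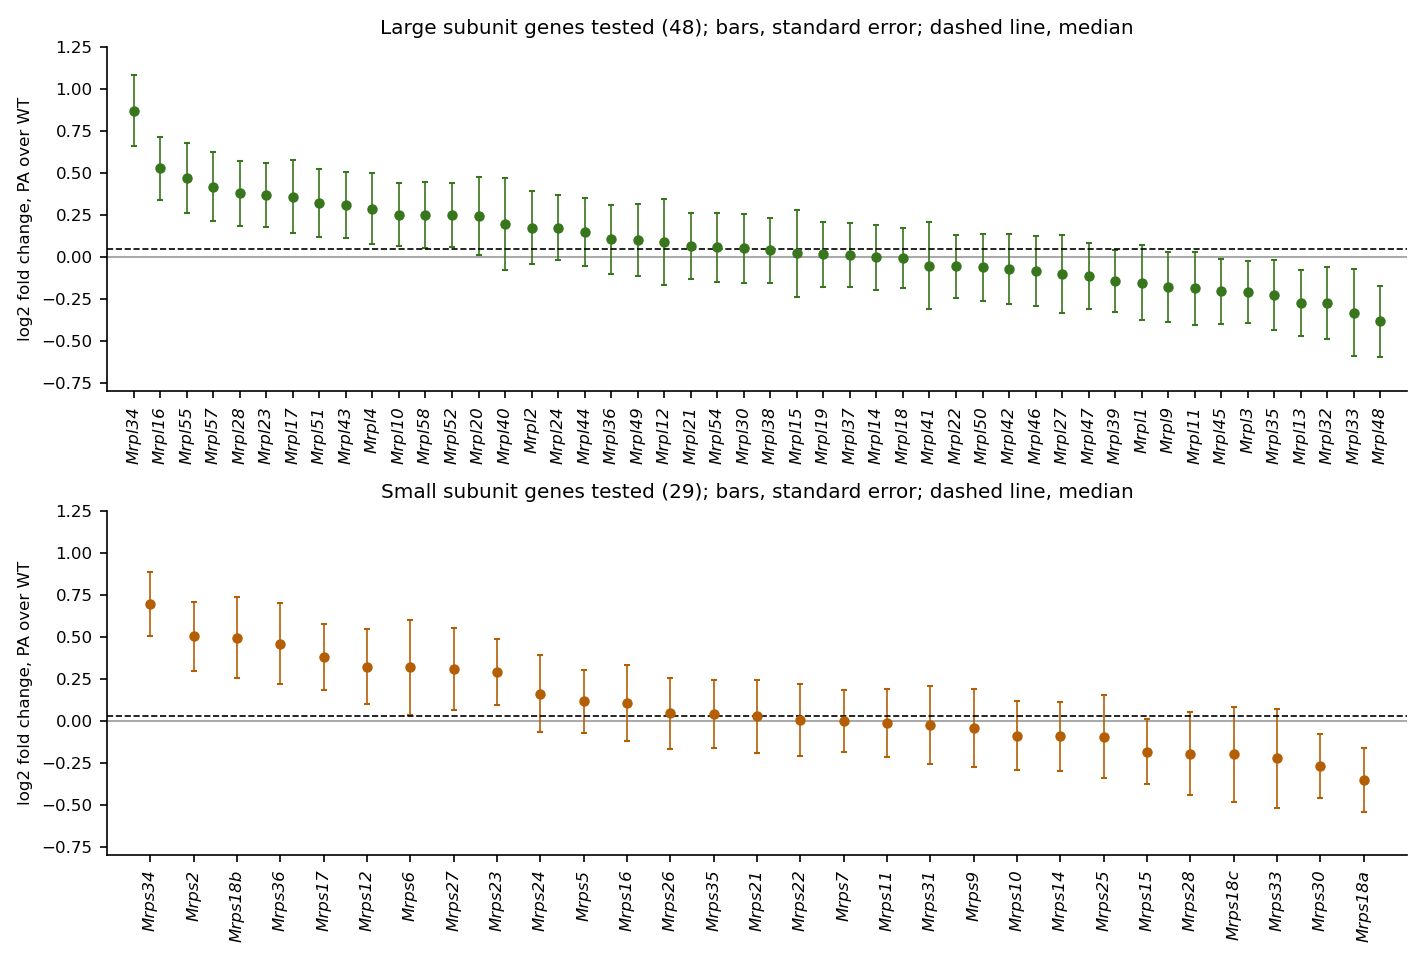
Log2 fold change, PA over WT, from edgeR for the 48 large subunit (above) and 29 small subunit genes tested (below), ordered by value, with bars of 1 standard error and a dashed line at the median. Mrpl34 and Mrps34 stand highest, and most bars cross or come near 0.

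In the large subunit the highest value belonged to Mrpl34 (chromosome 8, 71464959 to 71465747, plus strand), a small protein with a bacterial counterpart. It had 11.0 and 9.78 CPM in WT and 17.2 and 20.8 in PA. Both PA libraries lay well above both WT libraries, with a 1.83-fold difference, a log2 fold change of 0.87 (SE 0.21) and an adjusted p of 0.155 in edgeR. With no filter on low counts edgeR's adjusted p was 0.0279. Its deposited TPM was 27.0 and 21.6 in WT and 31.2 and 48.7 in PA, again without overlap. Mrpl16 (chromosome 19, 11770391 to 11774960), a protein near the catalytic centre that joins amino acids, had 22.2 and 21.0 CPM in WT and 29.3 and 32.9 in PA, a log2 fold change of 0.53 (SE 0.19, adjusted p = 0.335 in edgeR). The PA libraries were the higher ones in CPM, while its TPM of 24.9 and 22.4 in WT and 24.02 and 34 in PA overlapped. Mrpl55, with 8.93 and 10.2 CPM in WT and 12.4 and 14.1 in PA, and Mrpl57, with 12.1 and 10.8 in WT and 16.2 and 14.4 in PA, followed at 0.47 and 0.42. Neither pair of groups overlapped in CPM, though both pairs did in TPM, and neither gene was called (adjusted p = 0.446 and 0.491 in edgeR).

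At the low end of the large subunit stood Mrpl48, a protein of the central protuberance, the crest that faces the small subunit. It had 36.8 and 44.4 CPM in WT and 34.3 and 27.9 in PA, and a log2 fold change of -0.38 (SE 0.21, adjusted p = 0.546 in edgeR). Mrpl33, with a bacterial counterpart, had 16.9 and 14.3 CPM in WT and 15.04 and 9.76 in PA, at -0.33 (SE 0.26, adjusted p = 0.691 in edgeR). Its groups overlapped, and PA replicate 2 was the low library. The 3 most abundant large subunit genes, Mrpl42, Mrpl12 and Mrpl30, had values of -0.07, 0.09 and 0.05, each less than its SE. Mrpl12 shows how the PA libraries parted: PA replicate 1, at 191 CPM, lay above and PA replicate 2, at 128, lay below the WT libraries, at 147 and 154.

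In the small subunit the highest value was that of Mrps34 (chromosome 17, 24895116 to 24897502, plus strand), a mitochondria-specific protein known from people in whom its loss causes Leigh syndrome. It had 19.3 and 17.2 CPM in WT and 29.6 and 29.5 in PA, a 1.62-fold difference. The groups did not overlap, with a log2 fold change of 0.69 (SE 0.19) and an adjusted p of 0.201 in edgeR. Exons of Nme3, a nucleoside diphosphate kinase gene on the same strand, cover 37% of its exon bases, and exons of Mapk8ip3 on the other strand cover 63.4%. Nme3 had 0 STAR counts in every library, while RSEM gave it 347 and 253 expected counts in WT and 328 and 288 in PA. In STAR counts made without regard to strand, Mrps34 was at 1.46 with a larger SE of 0.41 (adjusted p = 0.21 in edgeR). In RSEM expected counts it was at 0.71 (SE 0.19, adjusted p = 0.198 in edgeR).

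Mrps2 (chromosome 2, 28468066 to 28471178), a protein between the head and body of the small subunit, had 23.8 and 22.4 CPM in WT and 29.0 and 36.5 in PA. The PA libraries were both higher in CPM, and the log2 fold change was 0.50 (SE 0.20, adjusted p = 0.399 in edgeR). Its TPM of 14.5 and 12.95 in WT and 13.5 and 20.6 in PA overlapped. Mrps17, a core protein with a bacterial counterpart, had 23.8 and 28.3 CPM in WT and 32.4 and 35.2 in PA, at 0.38 (adjusted p = 0.522 in edgeR). In TPM its groups overlapped, at 33.79 and 37.15 in WT and 33.63 and 43.61 in PA. At the low end stood Mrps18a, with 17.1 and 16.7 CPM in WT and 13.6 and 12.9 in PA, at -0.35 (SE 0.19, adjusted p = 0.539 in edgeR), and Mrps30, with 23.8 and 24.4 in WT and 21.2 and 18.7 in PA, at -0.27 (adjusted p = 0.648 in edgeR). In both genes the PA libraries were the lower ones. Despite their symbols, both proteins are built into the large subunit in mammals. The abundant Mrps21, Mrps18c and Mrps33 were at 0.03, -0.20 and -0.22, and their groups overlapped.

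**Figure D4:**
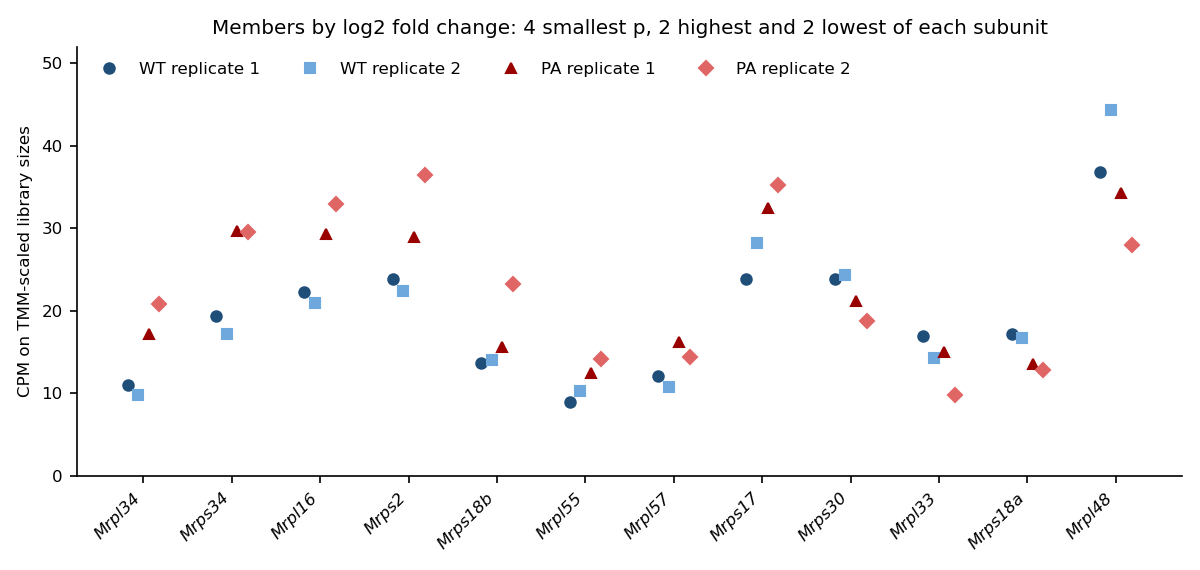
CPM on TMM-scaled library sizes of 12 members in each library: the 4 with the smallest p and the 2 highest and 2 lowest log2 fold changes of each subunit, ordered from the highest fold change. The PA libraries lie above WT from Mrpl34 to Mrps17 and below WT in Mrps30, Mrps18a and Mrpl48, with overlap in Mrpl33.

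Mrps18a, Mrps18b and Mrps18c are paralogs of a single bacterial protein, and the mitochondrial ribosome holds all 3. They did not share a direction. Mrps18b, on chromosome 17 at 35910379 to 35916389, had 13.6 and 14.0 CPM in WT and 15.7 and 23.2 in PA, at 0.50 (SE 0.24, adjusted p = 0.494 in edgeR). The high library was PA replicate 2, and without it the value was 0.18. In TPM the groups of Mrps18b overlapped, at 30.06 and 28.67 in WT and 25.52 and 48.74 in PA. Mrps18c had 21.5 CPM in PA replicate 1 but 12.4 in PA replicate 2, with the WT libraries between at 18.9 and 20.03, and was at -0.20 (SE 0.28). The ratio of Mrps18b to Mrps18a in CPM, which is not scaled to length, was 0.795 and 0.840 in WT and 1.15 and 1.81 in PA. In TPM it was 1.13 and 1.20 in WT and 1.61 and 2.67 in PA, so Mrps18b was the higher gene in every library on that scale. That pair was singled out after its values were seen, and with 2 libraries per group the smallest two-sided p of an exact permutation test is 0.333.

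Mrpl53 was the member left untested. It had 0 STAR counts in all libraries, and 88.0% of its exon bases lie under exons of the overlapping gene model Gm42688 on the same strand (both end at 83109939 on chromosome 6). RSEM, which shares such reads out, gave it 814 and 517 expected counts in WT and 733 and 651 in PA, or 64.0 and 46.5 TPM in WT and 52.7 and 50.1 in PA. These levels overlap, and in a fit on RSEM expected counts its log2 fold change was 0.15. Mrps24 shares 15.4% of its exon bases with Urgcp and was at 0.16, while Mrps6 shares 19.9% with Gm49711 and 10.4% with Slc5a3 and was at 0.32 (0.03 without PA replicate 2 and 0.55 without PA replicate 1). Mrps24, on the mRNA path, had 33.6 and 35.7 CPM in WT and 45.8 and 31.8 in PA. Mrps6, of the platform side, had 4.69 and 3.89 CPM in WT and 4.40 and 6.29 in PA. Both overlapped between groups, and 27 members share exon bases with a gene on the opposite strand.

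By place in the ribosome, no group of members held a call. Around the exit of the peptide tunnel 3 of 6 had a higher value in PA, with a median of 0.06, among them Mrpl23 at 0.37 and Mrpl45, which anchors the ribosome to the inner membrane, at -0.20. In the central protuberance 3 of 7 were higher (median -0.01), among them Mrpl58, which descends from a peptide release factor, at 0.25. Mrps7, Mrps9, Mrps10 and Mrps14, which are some of the proteins of the head of the small subunit, had values from -0.09 to -0.00, each less than its SE, and overlapped between groups. The 3 listed on the mRNA path (Mrps2, Mrps5 and Mrps24) were above 0. Of the stalk and its base, Mrpl12 was at 0.09, Mrpl10 at 0.25 and Mrpl11 at -0.19. Mrps12, of the decoding centre, had 16.6 and 12.2 CPM in WT and 18.1 and 17.9 in PA, at 0.32 (adjusted p = 0.642 in edgeR). Its TPM of 37.06 and 27.96 in WT and 25.45 and 33.58 in PA overlapped, with a lower mean in PA. Of the 48 members with a bacterial counterpart 26 were higher (median 0.02), and of the 28 tested members specific to mitochondria 17 were higher (median 0.04).

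The 5 ribosomal proteins whose symbols fall outside the rule gave no call either. Ptcd3, an RNA-binding repeat protein of the small subunit, had 42.2 and 44.97 CPM in WT and 56.9 and 61.5 in PA, at 0.44 (adjusted p = 0.424 in edgeR). Both PA libraries were higher in CPM, while its TPM of 25.5 and 25.2 in WT and 24.0 and 32.6 in PA overlapped. Chchd1, also of the small subunit, had 41.9 and 40.3 CPM in WT and 36.7 and 27.8 in PA, at -0.35 (adjusted p = 0.583 in edgeR). Dap3, a GTP-binding protein first known from cell death, was at 0.24, Gadd45gip1 at 0.20 and Aurkaip1 at 0.08.

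Genes that act with the ribosome gave no call in edgeR with the low-count filter. Of 24 genes for its assembly and rRNA modification 13 were higher, with a median of 0.05. The smallest p was that of Mpv17l2, an inner membrane protein needed for assembly, with 5.87 and 6.87 CPM in WT and 12.1 and 12.8 in PA. Its log2 fold change was 0.97 (SE 0.21, adjusted p = 0.126 in edgeR), and the adjusted p was 0.0489 in DESeq2 and 0.0155 in edgeR with no filter on low counts. Malsu1, which acts in late assembly of the large subunit, had 16.2 and 16.5 CPM in WT and 14.3 and 9.09 in PA, at -0.49 (adjusted p = 0.526 in edgeR). Of 15 translation factors 10 were higher, with a median of 0.32, or 0.07 without PA replicate 1. Gfm1, the elongation factor that moves the ribosome along, had 58.0 and 56.0 CPM in WT and 76.5 and 112 in PA, at 0.73 (adjusted p = 0.293 in edgeR, and 0.0423 without PA replicate 1). Mtrf1l, a release factor, had 8.02 and 6.83 CPM in WT and 5.22 and 5.49 in PA, at -0.47 (adjusted p = 0.491 in edgeR), with both PA libraries lower. Of 20 genes for mitochondrial aminoacyl-tRNA synthetases and the amidotransferase 15 were higher (median 0.15), but 10 with a median of -0.016 without PA replicate 2. The list was led by Mars2, which charges the methionine tRNA, with 2.80 and 2.75 CPM in WT and 4.83 and 5.38 in PA, at 0.88 (adjusted p = 0.221 in edgeR). Iars2, for isoleucine, was at 0.55 (adjusted p = 0.311 in edgeR). Of 13 regulators of mitochondrial transcription and biogenesis 6 were higher (median -0.00). Ppargc1a, the coactivator PGC-1 alpha, had 6.65 and 11.1 CPM in WT and 22.1 and 14.6 in PA, at 1.05 (SE 0.32, adjusted p = 0.251 in edgeR, and 0.0032 with no filter on low counts). Esrra, its nuclear receptor partner, was at 0.51 (adjusted p = 0.379), Nrf1 at 0.10 and Gabpa at -0.10 in the same edgeR fit.

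Beside the members, 3 sets that work with them or resemble them were read from the same fit. For the nuclear subunits of the respiratory chain, which assemble with the products of mitochondrial translation, 65 of 75 tested genes were higher in PA (median 0.22) and 0 were called. Without PA replicate 1 it was 46 genes with a median of 0.10, and without PA replicate 2 it was 72 with a median of 0.38. In CPM both PA libraries lay above both WT libraries for 40 of the 75 and below for 0. Over all tested genes these shares were 21.3% and 21.9%. In TPM not all 40 kept this order, and how many did was not counted. Atp5f1 had 353 and 360 TPM in WT and 319 and 349 in PA. Atp5d had 105 and 96.4 TPM in WT and 125 and 167 in PA. PA replicate 1 was the higher PA library for 81.3% of the nuclear subunit genes, 58.4% of the members and 50.2% of all tested genes. The same held for 75.3% of the cytosolic ribosomal protein genes and for all 13 mitochondrially encoded mRNAs. For the proteins of the cytosolic ribosome 66 of 77 were higher (median 0.25) and 0 were called, against 1 in DESeq2 and 2 in edgeR with no filter. Leaving out PA replicate 1 gave 39 of 77 with a median of 0.00. All 13 mitochondrially encoded mRNAs were higher (median 1.11; 10 of 13, median 0.71, without PA replicate 1), and 1 of them, mt-Nd6, was called. The number called depended on the setting, with 0 in counts without strand, 2 with the replicate number as a block, 7 in DESeq2 and 9 in edgeR with no filter on low counts. The called gene mt-Nd6 had 10.01 and 11.9 CPM in WT and 43.7 and 33.4 in PA, at 1.82 (adjusted p = 0.0222 in edgeR, but 0.105 in counts without strand and 0.127 in RSEM expected counts). As a share of STAR counts, mitochondrially encoded genes made up 6.90 and 7.38% of the WT libraries, 13.6% of PA replicate 1 and 8.98% of PA replicate 2. Whether the members differ from these sets was not tested, and all were measured in the same 4 libraries.

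**Figure D5:**
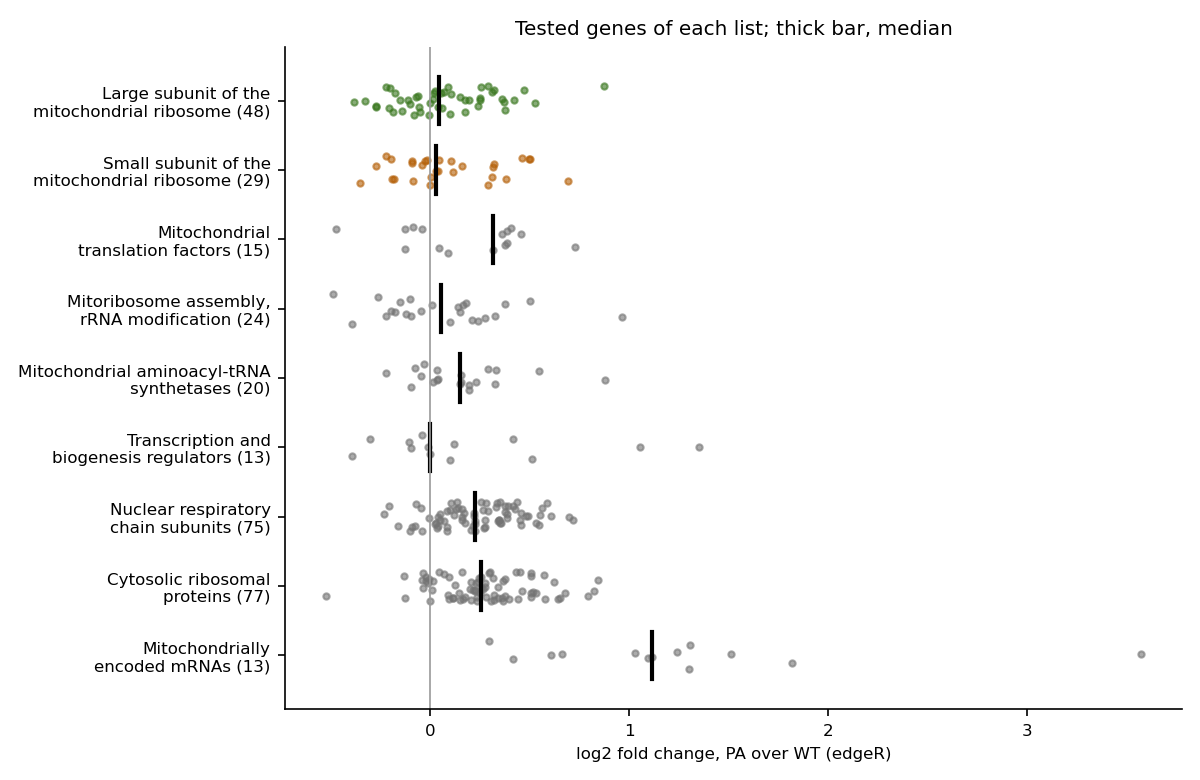
Log2 fold change, PA over WT, from edgeR for the tested genes of each list, with 1 point per gene and a thick bar at the median; numbers in brackets are genes tested. Both subunits of the mitochondrial ribosome centre near 0, with medians of 0.05 and 0.03, and the mitochondrially encoded mRNAs lie to the right with a median of 1.11.

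Some members share a start region with a gene on the other strand. A protein-coding partner with a start within 1000 bases was found for 23 members, at -197 to 935 bases. A minus sign means that the genes overlap at their starts. Pairs with a longer overlap there were not counted, such as Mrps11 and Mrpl46, both members, which share 173 exon bases. In 21 of the counted pairs both genes were tested. The signs agreed in 13 pairs, and 0 partners were called. Mrpl36 and Ndufs6, a complex I subunit, were at 0.10 and 0.08, and Mrps12 and Sars2, the mitochondrial seryl-tRNA synthetase, at 0.32 and 0.19. Mrps18b (0.50) and Ppp1r10, a phosphatase regulator that starts 45 bases away, at -0.87 (adjusted p = 0.128 in edgeR), went opposite ways. Mrps34 (0.69) and the nuclease gene Eme2 (0.02), 29 bases apart, had like signs but unlike sizes.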

How the data were processed

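RNA was measured in 4 mouse liver libraries, 2 WT and 2 PA, grouped by the sample titles. The authors deposited STAR read counts per gene (raw, by strand) and RSEM tables whose columns, per the file headers, are expected counts, TPM values and FPKM values. Per the submitters' processing notes, STAR 2.7.6a and RSEM 1.3.3 were used with GRCm38, and the annotation used for counting is not given in the sources used here. GENCODE M21, of the same build, gave symbols, biotypes and exons. The deposited STAR tables set reads that map to several places, or to several genes at once, apart in lines of their own. The opposite-strand column held 97.0 to 97.1% of stranded counts and was used. The 4 summary lines, with 28.1 to 34.3% of reads, were left out. Total gene counts put 3 counts at 0.0996 to 0.117 CPM.

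Differences were tested over all genes with edgeR 4.0.16 (R 4.3.3), with TMM, filterByExpr, the quasi-likelihood test and Benjamini-Hochberg adjustment at 0.05. The steps were tested on simulated counts. Rounded RSEM expected counts, DESeq2 1.42.0, limma-voom (limma 3.58.1) and the settings of the closing section were alternatives. TPM was summed and not tested, and FPKM was an alternative unit. The replicates of neither pair agreed within sampling noise (chi-square per degree of freedom 46.3 for WT and 135 for PA). Nothing in the labels pairs WT with PA libraries. The genes and lists were chosen with earlier results of these data known. Named genes are, per subunit, the 4 with the smallest p, the 2 highest and 2 lowest fold changes, the 3 most and 1 least abundant, members not tested or with exons shared with a coding gene on the same strand, and up to 3 genes by p of each other list; others, such as those named by place or neighbour, were chosen after their values were seen.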

Additional observations from a re-analysis of the deposited data

How the results depend on the processing

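The count of called members stayed at 0 in either direction under DESeq2, limma-voom, library sizes alone, counts without strand, RSEM expected counts, the replicate block, the fit without mitochondrially encoded genes and each fit without 1 library. With no filter on low counts 1 member, Mrpl34, was called higher. Over all genes the calls depended more on the settings: 186 higher and 256 lower in DESeq2, 414 and 488 with no filter, 126 and 192 with the replicate number as a block, and 50 to 239 higher and 105 to 261 lower when 1 library was left out, against 38 and 79. A lone library is then assumed to vary like the other group. The higher share of calls was 32.5% in edgeR, 42.1% in DESeq2, 45.9% with no filter and up to 47.8% without 1 library (PA replicate 2). Replicate numbers do not pair the samples by the labels, and same-numbered deviations correlated at -0.089.

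Leaving out 1 library moved the median of the large subunit between -0.01 and 0.08 and that of the small subunit between -0.084 (without PA replicate 1) and 0.10, and the number of members with a higher value between 38 and 52. The log2 differences of summed TPM ran from -0.22 to -0.11 (large) and from -0.28 to -0.12 (small). They were -0.031 and -0.067 after rescaling without mitochondrially encoded genes, whose share is then out by construction, and -0.031 and -0.068 in FPKM, where the cause was not tested. Fold changes near 0 turned sign when 1 library was left out, with ranges of -0.23 to 0.073 for Mrpl42, -0.22 to 0.35 for Mrpl12, -0.093 to 0.19 for Mrpl30, -0.042 to 0.082 for Mrpl19, -0.16 to 0.20 for Mrps21, -0.65 to 0.14 for Mrps18c, -0.68 to 0.13 for Mrps33, -0.12 to 0.40 for Mrps24 and -0.37 to 0.41 for Aurkaip1. With library sizes alone Mrpl19 was at -0.031 and Mrps21 at -0.017, and without strand Mrpl19 was at -0.0016. The call of mt-Nd6 was lost without strand and in RSEM expected counts. STAR counts of the 77 tested members ran from 99 to 4877 per library.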
